A study of Mus musculus with 9 samples.

Results

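The Wnt pathway genes described here were measured in cells sorted as endothelial cells (ECs) from mouse bone marrow (BM). They are the receptors Fzd4 and Fzd6, the co-receptors Lrp5 and Lrp6, the secreted amplifier Rspo3, the secreted antagonist Dkk2, and Axin2, Lef1 and Tcf7, which are widely used as readouts of the pathway. They were picked out of the read count table by gene name, and the 9 names found 10 of its 46078 rows. Fzd6 has a second identifier that holds no count in any library and was left aside. All 9 genes passed the filter on low counts that left 15937 genes for testing.

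The cells came from normal wild-type mice of strain B6 with no treatment, and were gated as CD45-Ter119-CD31+ by flow cytometry. They were sorted into a Sca-1+ fraction (4 libraries, numbered 7, 13, 15 and 19 in the labels), taken by the study as ECs of arterioles, and a Sca-1- fraction (5 libraries, numbered 8, 10, 14, 16 and 22), taken as ECs of sinusoids. Sca-1 is the product of Ly6a. The sample titles carry further marks that the labels do not explain, wt for libraries 8, 15, 16 and 19, CD452 for libraries 13, 14 and 22, the same without its letters for library 10 and neither for library 7. The title of Sca-1+ library 15 and that of Sca-1- library 16 share a number that no other title has, so that these libraries may come from the same source. The labels give neither age nor sex, and do not say which libraries are separate mice, so that p-values measure the spread between these libraries only. The one question the design asks of these genes is which of them differ between the fractions.

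In canonical Wnt signalling, a secreted Wnt ligand binds a Frizzled receptor together with Lrp5 or Lrp6, the complex that degrades β-catenin is held back, and β-catenin reaches the nucleus, where it acts with DNA-binding factors of the TCF/LEF family. Axin2 is a brake of the pathway that is itself induced by it, and Lef1 and Tcf7 are both partners of β-catenin and, in many tissues, its targets. R-spondins such as Rspo3 raise the amount of Frizzled at the surface by drawing off the ubiquitin ligases Rnf43 and Znrf3, whereas Dkk proteins bind Lrp5 and Lrp6, with Kremen proteins as partners. In ECs, Fzd4 with Lrp5 and Tspan12 receives Norrin, a ligand outside the Wnt family, in the growth of retinal vessels, and β-catenin maintains the barrier of brain vessels.

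Both fractions were checked against their labels before these genes were read. The libraries held 21581653 to 25959818 counts, and 3 counts, taken as the floor, were worth 0.0995 to 0.209 CPM (counts scaled to a common library size, here with TMM factors of 0.5809 to 1.219). Ly6a was at 1132 ± 186 CPM in Sca-1+ (SD, n = 4) and at 0.678 ± 0.523 CPM in Sca-1- (SD, n = 5). Pecam1, which encodes CD31, did not pass the test (log2 difference 0.74, adjusted p = 0.25). Of 25 general endothelial markers, 24 were higher in Sca-1+, and their summed level was 17656 to 21079 CPM there against 1362 to 2780 CPM in Sca-1-, while 12 of 12 megakaryocyte markers were lower, at 29.0 to 76.8 CPM against 23250 to 95513 CPM. In every Sca-1- library the megakaryocyte markers thus summed to more than the endothelial markers, as did stromal and osteoblast markers (3810 to 44863 CPM). The RNA of this fraction is thus not that of ECs alone. Of 10 arterial markers 9 were higher in Sca-1+, and of 8 sinusoidal markers 7 were higher there too. In such bulk samples fewer ECs and less RNA per EC cannot be told apart. The part of this makeup in the differences below was not tested, except by the scaling to endothelial genes given with them.

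With TMM scaling, 5 of the 9 genes were higher in Sca-1+ (Fzd4, Fzd6, Lrp5, Lrp6 and Dkk2, of which Fzd6, Lrp5 and Lrp6 turned when libraries were scaled to endothelial genes) and 4 were not called (Rspo3, Axin2, Lef1 and Tcf7). Here and below, a gene that turned is one whose log2 difference changed sign, whether or not it then passed the threshold. None was lower in edgeR's quasi-likelihood test with Benjamini-Hochberg adjustment over all genes, and none was lower at an unadjusted p under 0.05, by DESeq2 or by limma voom. Among all genes tested, 44.8% passed this threshold, 23.3% as higher and 21.4% as lower. For the 5 genes called, every Sca-1+ library lay above every Sca-1- library, which 24.8% of all genes tested did. The median log2 difference (Sca-1+ over Sca-1-) was 1.42 for the 9 genes and 0.07 for all genes tested. The 5 calls were also made in the 7 libraries titled wt or CD452 with this mark as a term of the fit, an alternative added after the values were seen, at adjusted p = 0.0012 to 0.018. Within the wt and within the CD452 libraries the differences in mean log2 CPM were 4.30 and 4.50 for Fzd4, 2.81 and 2.36 for Fzd6, 3.21 and 2.84 for Lrp5, 1.44 and 1.54 for Lrp6, and 4.88 and 5.54 for Dkk2 (2 against 2 and 1 against 2 libraries, so without a test).

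**Figure D1:**
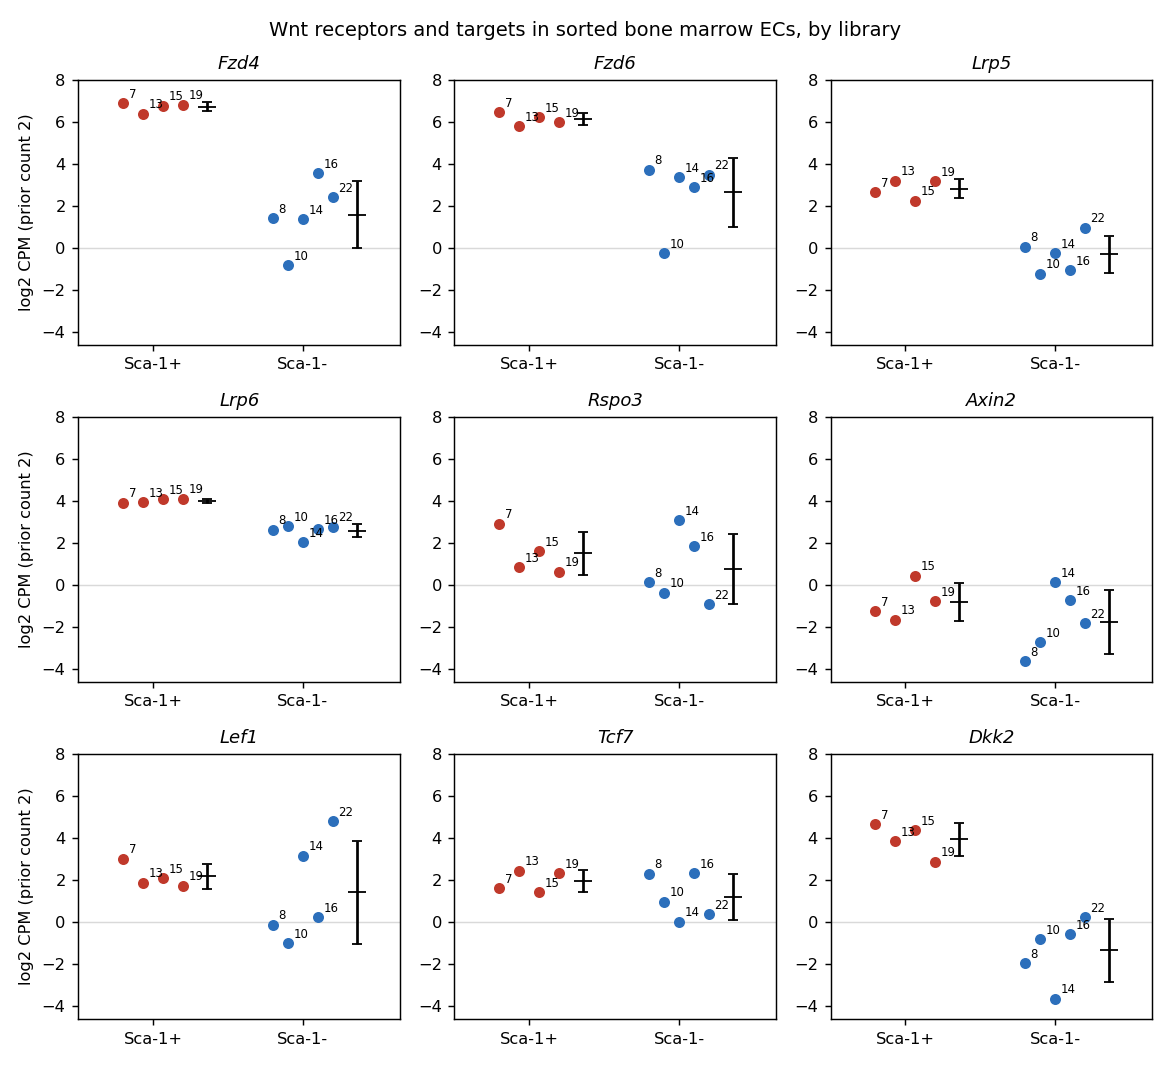
Level of each of the 9 genes in each library (log2 CPM with a prior count of 2, vertical axis) by sorted fraction, with library numbers beside the points and the mean ± SD of 4 Sca-1+ and 5 Sca-1- libraries in black. The fractions do not overlap for Fzd4, Fzd6, Lrp5, Lrp6 and Dkk2 and overlap for Rspo3, Axin2, Lef1 and Tcf7, and library 22 is the highest of all for Lef1 at 27.5 CPM.

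Positions are given for mm10 with the gene bounds of GENCODE M21. Fzd4 (ENSMUSG00000049791) is at chr7:89404355-89413134 and Fzd6 (ENSMUSG00000022297) at chr15:39006034-39038188, both on the plus strand. Lrp5 (ENSMUSG00000024913) is at chr19:3584828-3686564 and Lrp6 (ENSMUSG00000030201) at chr6:134446476-134566965, both on the minus strand. Rspo3 (ENSMUSG00000019880, minus strand) is at chr10:29452416-29535867 and Dkk2 (ENSMUSG00000028031, plus strand) at chr3:132085292-132180304. Axin2 (ENSMUSG00000000142, plus strand) is at chr11:108920349-108950783, Tcf7 (ENSMUSG00000000782, minus strand) at chr11:52252371-52283014, and Lef1 (ENSMUSG00000027985, plus strand) at chr3:131110471-131224356. Fzd6, Rspo3, Axin2 and Lef1 each share exonic bases with a non-coding gene on the opposite strand, and since no source states that strand was used in counting, reads of the pairs cannot be told apart.

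The promoters of Fzd4 and Dkk2, the genes with the largest differences, and those of the target genes Axin2 and Lef1 are shown so that genes that differed together and genes that did not can be compared. For Lef1 only an internal start is shown. It is the only Lef1 window with a match, and the windows at its other starts, not shown, held none. Each run is the 250 bases before a RefSeq start site on the strand of the gene (GRCm38.p6, plus strand), and 5 of the 9 genes had such an entry. Capitals mark a match to CTTTG followed by 2 bases that are each A or T, the core letters bound by TCF/LEF factors, or to CGGAAG, a core of ETS factors, which act in ECs. Both strands were searched, and the motifs do not overlap each other here.

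Fzd4, chr7:89404116-89404365: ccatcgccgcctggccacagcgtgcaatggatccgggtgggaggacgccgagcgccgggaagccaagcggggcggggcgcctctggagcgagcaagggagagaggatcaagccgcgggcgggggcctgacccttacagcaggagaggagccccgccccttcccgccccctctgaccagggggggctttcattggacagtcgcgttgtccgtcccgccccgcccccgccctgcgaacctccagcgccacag
Dkk2, chr3:132085042-132085291: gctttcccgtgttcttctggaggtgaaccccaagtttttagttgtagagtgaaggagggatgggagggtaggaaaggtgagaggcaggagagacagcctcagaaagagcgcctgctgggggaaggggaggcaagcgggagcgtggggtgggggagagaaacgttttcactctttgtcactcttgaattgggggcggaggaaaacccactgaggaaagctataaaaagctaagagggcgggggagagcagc
Axin2, chr11:108920099-108920348: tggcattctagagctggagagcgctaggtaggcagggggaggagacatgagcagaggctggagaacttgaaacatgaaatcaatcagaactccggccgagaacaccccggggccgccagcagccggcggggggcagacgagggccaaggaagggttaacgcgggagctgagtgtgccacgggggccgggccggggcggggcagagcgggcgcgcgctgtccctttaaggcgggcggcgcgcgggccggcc
Lef1, an internal start, chr3:131156044-131156293: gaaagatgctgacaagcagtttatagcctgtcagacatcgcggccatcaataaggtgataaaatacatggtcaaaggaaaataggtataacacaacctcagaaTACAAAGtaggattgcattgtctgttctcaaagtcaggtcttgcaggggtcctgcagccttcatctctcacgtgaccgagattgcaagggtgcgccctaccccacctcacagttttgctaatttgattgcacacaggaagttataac

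Over windows of 300 bases (250 before and 50 after the start), 16.9% of 32851 RefSeq promoters held a TCF/LEF match and 16.9% an ETS match. Among the 9 windows of these genes (4 of Lef1, 2 of Tcf7 and 1 each of Dkk2, Fzd4 and Axin2), 1 Lef1 window held a TCF/LEF match (on the other strand, shown above in capitals), and 1 Tcf7 window an ETS match. The Fzd4 and Dkk2 windows, with 72.7% and 57.7% G and C, held neither, which says only that these letters are not in these windows.

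Fzd4, the receptor for Norrin and for several Wnts, had the highest mean level of the 9 genes in Sca-1+ per length of transcript. Its CPM in Sca-1+ libraries 7, 13, 15 and 19 was 118, 83.6, 108 and 112, and in Sca-1- libraries 8, 10, 14, 16 and 22 it was 2.58, 0.488, 2.50, 11.7 and 5.25. All Sca-1+ libraries were close together and far above the Sca-1- libraries, of which library 16 was the highest and library 10 the lowest. Of the Sca-1- libraries, these 2 also had the lowest (23250 CPM) and the highest (95513 CPM) sum of megakaryocyte markers. They likewise had the lowest (1362 CPM) and the highest (2780 CPM) sum of general endothelial markers. For arterial and sinusoidal endothelial markers their order was the other way. Library 10 had the lowest sums of the Sca-1- libraries (10.5 and 55.9 CPM), and library 16 was at 34.7 and 234 CPM. Libraries 8 and 14, close to each other in Fzd4, had 78837 and 47448 CPM of megakaryocyte markers. The part of these cells in the spread of Fzd4 was not tested. The mean was 105 ± 15.1 CPM against 4.50 ± 4.35 CPM, a log2 difference of 4.53 (SE 0.69, adjusted p = 5.5e-04 by edgeR), or 23.1-fold. Without library 16 it was 5.26.

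Fzd6, a Frizzled known for its part in planar cell polarity, was the other abundant receptor. In the Sca-1+ libraries it was at 87.6, 55.2, 74.7 and 63.3 CPM, and in the Sca-1- libraries at 13.1, 0.767, 10.3, 7.26 and 11.2 CPM. Library 10 stood apart from the other Sca-1- libraries, and no Sca-1- library reached the Sca-1+ range. The log2 difference was 3.04 (SE 0.58, adjusted p = 0.0019 by edgeR), and 2.68 (adjusted p = 7.9e-05) without library 10.

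Within a library, the ratio of Fzd4 to Fzd6 counts per kilobase does not depend on how libraries are scaled. Its log2 value was 0.12 ± 0.17 in Sca-1+ and -1.56 ± 1.20 in Sca-1- (SD, n = 4 and 5), so that Fzd4 was at the level of Fzd6 in Sca-1+ and below it in 4 of 5 Sca-1- libraries, library 16 being the exception at 0.20. The difference of 1.67 had p = 0.04 in an exact two-sided permutation test over all assignments of the libraries, and p = 0.06 after adjustment over 3 such ratios. The difference is thus not past the threshold.

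Fzd4 and Fzd6 together with Fzd8 made up most Frizzled counts per kilobase in Sca-1+. Fzd4 held 34.3 to 42.0% there and 4.83 to 23.7% in Sca-1-, with no overlap, Fzd6 33.0 to 38.5% against 12.2 to 57.9%, and Fzd8 15.1 to 24.1% against 11.6 to 35.0%. Fzd7 took 1.78 to 21.3% of the Sca-1- sum and at most 2.53% of the Sca-1+ sum. The sum itself was 180 to 270 CPM in Sca-1+ and 7.32 to 39.2 CPM in Sca-1-, so the Sca-1- shares rest on far fewer counts.

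**Figure D2:**
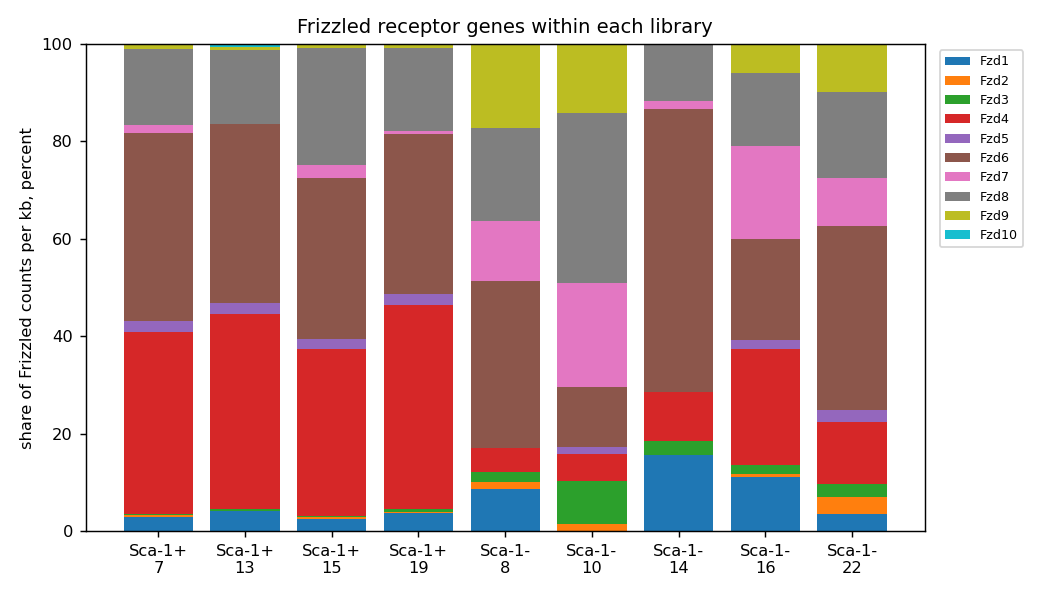
Share of each of the 10 Frizzled genes in the Frizzled counts per kilobase (percent, vertical axis) in each library (horizontal axis). Fzd4 holds 34.3 to 42.0% in the Sca-1+ libraries and 4.83 to 23.7% in the Sca-1- libraries, which differ more among themselves.

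Of the other 8 Frizzled genes, 7 were tested, and with TMM scaling 2 were higher, both of which turned with scaling to endothelial genes, and none was lower (none at an unadjusted p under 0.05, nor by DESeq2 or limma voom). Among all genes tested, 23.3% were higher and 21.4% lower. By limma voom 3 of the 7 were higher. Fzd8 was at 45.1 ± 16.3 CPM against 5.48 ± 2.81 CPM (log2 difference 3.04, SE 0.43, adjusted p = 3.7e-04 by edgeR). Fzd5, which was at 0 to 30 counts in the Sca-1- libraries, had a log2 difference of 3.78 (SE 1.08, adjusted p = 0.016, and 0.11 in the 7 libraries with the title mark as a term). With scaling to endothelial genes Fzd5 was at -0.44 (adjusted p = 0.68 by edgeR) and did not differ beyond its spread. Fzd1 (1.55), Fzd2 (0.59), Fzd3 (-0.07), Fzd7 (-0.33) and Fzd9 (-0.62) did not pass the test, with adjusted p from 0.16 to 0.90 by edgeR. For Fzd1, every Sca-1+ library (5.14 to 6.19 CPM) still lay above every Sca-1- library (0 to 3.45 CPM), as for 24.8% of all genes tested. Fzd10 did not pass the filter and held at most 16 counts in any library.

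Lrp5 and Lrp6 are the paired co-receptors that carry the signal from Frizzled to the Axin complex, and both were higher in Sca-1+. Lrp5 was at 6.23, 9.08, 4.66 and 8.97 CPM in Sca-1+ and at 0.960, 0.349, 0.763, 0.398 and 1.87 CPM in Sca-1-. Its log2 difference was 3.05 (SE 0.55, adjusted p = 0.0014 by edgeR). Lrp6 was at 15.1, 15.4, 16.9 and 17.1 CPM in Sca-1+ and at 6.12, 6.90, 4.03, 6.30 and 6.75 CPM in Sca-1-. It had the smallest difference of the 5 genes called (1.42, SE 0.25, adjusted p = 0.0013) and the tightest values within both fractions, with library 14 below the other Sca-1- libraries (1.20, adjusted p = 0.0031, without it).

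The log2 ratio of Lrp6 to Lrp5 counts per kilobase was 0.72 ± 0.48 in Sca-1+ and 2.50 ± 1.02 in Sca-1-, with Lrp6 above Lrp5 in every library. The fractions touched at library 15 (1.37) and library 22 (1.35). The difference of -1.79 had p = 0.024 in the exact permutation test, two-sided, and p = 0.06 after adjustment over the 3 ratios, and is not past the threshold.

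Among the other co-receptors and receptor partners, 6 of 7 were tested, and with TMM scaling 5 were higher, of which all but Ror1 turned with scaling to endothelial genes, and none was lower, with none at an unadjusted p under 0.05 and none by DESeq2 or limma voom. Ror1, a receptor for Wnt5a, held 113, 10, 52 and 155 counts in the Sca-1+ libraries and 1 count in all in the Sca-1- libraries (adjusted p = 5.7e-04 by edgeR). Reck, which with Adgra2 receives Wnt7 ligands in brain vessels, had the smallest difference called (1.59, SE 0.48, adjusted p = 0.021), and it missed the threshold without library 7 (adjusted p = 0.059), 10 (0.055) or 14 (0.056). Tspan12, named after its values were seen as the partner of Fzd4 and Lrp5, was at 361 ± 9.67 CPM against 20.3 ± 4.99 CPM (4.15, SE 0.24, adjusted p = 6.3e-06).

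Dkk2, a secreted antagonist that binds Lrp5 and Lrp6, had the largest difference of the 9 genes. It was at 25.3, 14.3, 20.7 and 7.27 CPM in Sca-1+, and in Sca-1- at 0.180, 0.488, 0, 0.597 and 1.10 CPM, which are 3, 7, 0, 18 and 27 counts. Libraries 8 and 14 were thus at the floor, and the lowest Sca-1+ library was several times above the highest Sca-1- library. The log2 difference was 5.12 (SE 0.86, adjusted p = 9.0e-04 by edgeR). Markers of smooth muscle and pericytes also differed between the fractions, 9 of 11 being higher in Sca-1+ (802 to 1735 CPM in sum against 20.4 to 97.2 CPM, none of the 11 at 0 throughout a fraction). Their sum in Sca-1+ libraries 7, 13, 15 and 19 was 1120, 802, 1557 and 1735 CPM, so that the library with the highest sum had the lowest Dkk2 of the fraction. The part of these cells in the Dkk2 counts was not tested.

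The Dkk family did not move together. Dkk1 held 1, 0, 2 and 69 counts in Sca-1+ and 110 to 737 counts in Sca-1- (log2 difference -5.10, SE 1.39, adjusted p = 0.013 by edgeR), and the difference was -9.22 without Sca-1+ library 19. Dkk3, at 4.38 ± 2.50 CPM against 5.91 ± 6.69 CPM, did not pass the test (adjusted p = 0.75), and Dkk4 had no count in any library. Of the 10 other inhibitors and Kremens tested, 1 was higher and 3 were lower, beside 23.3% and 21.4% of all genes tested. Kremen2, a partner of Dkk proteins, was at 17, 35, 26 and 70 counts in Sca-1+ and at 0 in all 5 Sca-1- libraries, at least 6.43-fold higher against 3 counts in the Sca-1- library where these are worth most (0.209 CPM). Stromal and osteoblast markers, which include the cells in which Dkk1 is known to be made, summed to 695 to 3158 CPM in Sca-1+ and 3810 to 44863 CPM in Sca-1- (3 of 13 higher, 3 lower, none at 0 throughout a fraction), and their part was not tested.

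Rspo3, an R-spondin made by ECs in several vascular beds, did not differ beyond its spread. It was at 7.45, 1.73, 2.97 and 1.47 CPM in Sca-1+ and at 1.02, 0.697, 8.39, 3.52 and 0.447 CPM in Sca-1-. Both fractions had a single high library, 7 and 14, and the Sca-1+ range lay within the Sca-1- range. The log2 difference was 0.27 (95% interval -1.69 to 2.23, adjusted p = 0.83 by edgeR), -0.45 without library 7 and 1.15 without library 14. The interval holds differences as large as that of Lrp6 in either direction.

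The other R-spondins did not separate the fractions either. Rspo2 had a log2 difference of 0.00 (SE 1.03), and Rspo1 and Rspo4 did not pass the filter, at no more than 17 and 24 counts. Among all genes tested, 23.3% were higher and 21.4% lower. Of the 6 other genes of the R-spondin axis tested, none was higher (none at an unadjusted p under 0.05, nor by DESeq2 or limma voom) and 1 was lower. This was Rnf43, the ubiquitin ligase that removes Frizzleds, at 12, 0, 0 and 0 counts in Sca-1+ and 17 to 626 counts in Sca-1- (-6.07, SE 1.54, adjusted p = 0.0090 by edgeR, -10.46 without Sca-1+ library 7 and -5.17 without Sca-1- library 16).

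Axin2, the feedback brake and most general target of the pathway, was hardly counted in either fraction. It was at 10, 7, 37 and 13 counts in Sca-1+ and at 0, 1, 24, 16 and 5 counts in Sca-1-. The ranges overlapped, and the log2 difference of 0.65 (95% interval -1.51 to 2.81, adjusted p = 0.61 by edgeR) was -0.04 without library 15 and 1.35 without library 14. Per kilobase its mean was the lowest of the 9 genes in both fractions, and the interval holds differences of several fold in either direction. Within the wt libraries the difference in mean log2 CPM was 2.00, and within the CD452 libraries it was -0.81.

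Lef1 had the largest standard error of the 9 genes (1.07 on the log2 scale). In Sca-1+ it was at 8.03, 3.61, 4.17 and 3.25 CPM, and in Sca-1- at 0.840, 0.418, 8.90, 1.09 and 27.5 CPM, so that 3 Sca-1- libraries were below all Sca-1+ libraries and libraries 14 and 22 above them. The log2 difference was -0.70 (95% interval -3.09 to 1.68, adjusted p = 0.62 by edgeR). Without library 22 it was 0.75 (adjusted p = 0.53), and without libraries 14 and 22, an alternative added after the values were seen, it was 2.47, a direction fixed by leaving out the highest Lef1 values of the fraction. Both of these libraries are titled CD452. Within the CD452 libraries the difference in mean log2 CPM was -2.09, and within the wt libraries, which are without them, it was 1.86. With the mark as a term, Lef1 was not called (0.54, adjusted p = 0.74 by edgeR).

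Lef1 is expressed in developing B cells. Within Sca-1-, libraries 14 and 22 also had the highest sums of B cell markers (148 and 476 CPM), with Sca-1+ library 19 between them at 266 CPM. Of 13 such markers, 8 were lower in Sca-1+ and 1, Ebf1, was higher, and their sum was 118 to 266 CPM in Sca-1+ and 20.1 to 476 CPM in Sca-1-. Without Ebf1, a choice made after its values were seen, the sum was 1.10 to 6.07 CPM in Sca-1+ and, in Sca-1- libraries 8, 10, 14, 16 and 22, 44.0, 15.3, 115, 56.6 and 414 CPM. The 5 Sca-1- libraries thus stood in the same order for Lef1 and for these markers. In Sca-1+, Ms4a1, Rag1 and Cd22 were at 0 in all 4 libraries while Lef1 held 84 to 236 counts. The part of B cells in the Lef1 counts of Sca-1- was not tested.

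**Figure D3:**
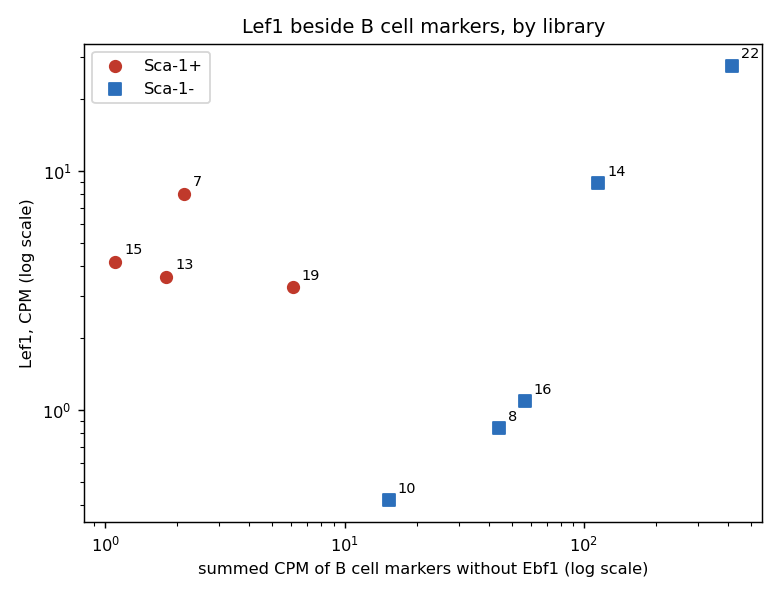
Lef1 (CPM, log axis) against the summed CPM of 12 B cell markers without Ebf1 (log axis), 1 point per library with its number. The Sca-1- libraries run from library 10 (15.3 and 0.418 CPM) to library 22 (414 and 27.5 CPM), while the Sca-1+ libraries hold 3.25 to 8.03 CPM of Lef1 at 1.10 to 6.07 CPM of the markers.

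Tcf7, the T cell factor that gave the family its name, was at 2.96, 5.34, 2.62 and 4.95 CPM in Sca-1+ and at 4.86, 1.88, 0.932, 4.94 and 1.22 CPM in Sca-1-. Sca-1- libraries 8 and 16 lay within the Sca-1+ range and the other 3 below it. The log2 difference of 0.52 (95% interval -0.77 to 1.80, adjusted p = 0.49 by edgeR) was 0.20 without library 14 and -0.09 without libraries 14 and 22. Of 17 T and NK cell markers, Cd3e, Cd3d, Cd3g, Cd8a, Cd6, Il7r and Ncr1 were at 0 in all Sca-1+ libraries, and in Sca-1- Cd8a and Cd6 were at 0 throughout, while Cd3e held 47 counts in library 14 and none elsewhere. Of the list 6 were tested, 2 were higher and 4 lower in Sca-1+, and its sum was 39.4 to 53.1 CPM in Sca-1+ and 406 to 723 CPM in Sca-1-. That Sca-1- sum lay in other genes of the list. Cd3e, Cd3g and Cd3d were at most at 1.99, 0.678 and 0.0663 CPM in any Sca-1- library. Cd4 held 8, 12, 11 and 7 counts in Sca-1+, 14 in Sca-1- library 10 and none in the other Sca-1- libraries. The part of T and NK cells in the Tcf7 counts was not tested. Within the wt libraries the Tcf7 difference in mean log2 CPM was -0.43, and within the CD452 libraries it was 2.24.

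The log2 ratio of Lef1 to Tcf7 counts per kilobase was -1.51 ± 1.0 in Sca-1+ and -1.55 ± 3.37 in Sca-1-. Tcf7 exceeded Lef1 in all 4 Sca-1+ libraries and in Sca-1- libraries 8, 10 and 16, while Lef1 exceeded Tcf7 in libraries 14 (1.48) and 22 (2.73). The means differed by 0.04 (p = 0.97, exact permutation test, two-sided, and 0.97 after adjustment), with a spread in Sca-1- that could hide a large difference.

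Per kilobase, the order of levels differed between the fractions. In Sca-1+ it was Fzd4 (15.7 ± 2.24 CPM per kilobase, SD, n = 4), Fzd6 (14.6 ± 2.92), Dkk2 (4.55 ± 2.11), Tcf7 (1.51 ± 0.524), Lrp6 (1.18 ± 0.0763), Rspo3 (1.10 ± 0.899), Lrp5 (0.743 ± 0.223), Lef1 (0.542 ± 0.252) and Axin2 (0.107 ± 0.0855). Only the steps from Fzd6 to Dkk2 and from Lef1 to Axin2 separated neighbours without overlap of their libraries. In Sca-1- Fzd6 came first (1.77 ± 1.0 CPM per kilobase, SD, n = 5), followed by Tcf7 (1.05 ± 0.753), and each gene overlapped the next in the order.

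Other genes with the most similar pattern were taken as those with the smallest root mean square difference in log2 CPM, centred on each gene's mean, over the 9 libraries. For Fzd4 they were Robo4 (0.44), an endothelial guidance receptor, Mn1 (0.45) and Sult1a1 (0.46). For Fzd6 they were Gpr137b (0.28), Eln, which encodes elastin (0.41), and Zfp532 (0.44), and for Lrp5 Enpp3 (0.37), Cyb561 (0.38) and Casp12 (0.38). Lrp6 had the closest neighbours, 2810403A07Rik (0.10), the chloride transporter gene Clcn7 (0.12) and Baz2b (0.16). Those of Dkk2 were Plekhg1 (0.67), Slc26a11 (0.73) and Mapk15 (0.74), and those of Lef1 were RP24-176P19.3 (0.42), Chst3 (0.78) and Stambpl1 (0.81). Tcf7 was nearest to Gm15530 (0.32), Plekhf1 (0.45) and Sfn (0.47), Axin2 to Mtap7d3 (0.48), Ddx59 (0.50) and Trmt61b (0.60), and Rspo3 to A530016L24Rik (0.67), Cage1 (0.78) and Gm16312 (0.80). For the 5 genes called this likeness largely restates the difference between the fractions.

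Of the other 113 genes listed for the pathway, 83 passed the filter and were tested. Of the 83, 30 were higher and 13 lower in Sca-1+ with TMM scaling (5 and 70 with scaling to endothelial genes), with a median log2 difference of 0.55. None of the 6 Wnt ligands tested, of 20 genes listed with Norrin, was called in either direction, with 1 (Wnt5b, lower) at an unadjusted p under 0.05, the same 1 by DESeq2 and none by limma voom. Wnt5b, at 9.04 ± 2.31 CPM against 18.7 ± 12.7 CPM, had a log2 difference of -1.04 (SE 0.45, adjusted p = 0.083 by edgeR) and was named after its values were seen. It passed the threshold without library 14 (-1.34, adjusted p = 0.026), and its difference was -0.64 without library 8. The Norrin gene Ndp held at most 27 counts in any library and did not pass the filter.

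Both genes of Wnt secretion were higher with TMM scaling and lower with scaling to endothelial genes, Porcn, the acyltransferase of Wnts (2.12, SE 0.39, adjusted p = 0.0015 by edgeR), and Wls, their carrier (1.17, SE 0.38, adjusted p = 0.030), which missed the threshold without library 7, 8, 10, 14 or 15 (adjusted p = 0.054 to 0.088). Of 14 cytoplasmic genes 5 were higher, all of which turned with scaling to endothelial genes, and 3 lower, from Ctnnb1, which encodes β-catenin (1.58, adjusted p = 6.2e-04), to the kinase gene Csnk1e (-2.05, adjusted p = 0.012). Of 13 nuclear genes 7 were higher, all of which turned in the same way, and 3 lower, from Tcf7l1, a TCF factor of mainly repressive action (3.59, SE 0.34, adjusted p = 4.6e-05), to Pygo1 (-3.59, adjusted p = 0.043). Pygo1 missed the threshold without library 13, 15 or 19 (adjusted p = 0.096 to 0.10), with library size as the only scaling (0.071) and with no filter on low counts (0.068), and its log2 difference was -7.86 without library 7. It was tested in 6 of the 9 fits that left out 1 library.

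Of the 10 other common targets tested, 1 was higher and 2 were lower, and 7 were, like Axin2, Lef1 and Tcf7, not called. The shares of all genes tested, for these and the lists below, were 23.3% higher and 21.4% lower. Ccnd1, which encodes cyclin D1, was higher (1.35, SE 0.32, adjusted p = 0.0068 by edgeR, turned with scaling to endothelial genes), but missed the threshold without libraries 14 and 22 (adjusted p = 0.062) and with the title mark as a term (0.077), and Rnf43, given above, was the lowest. All 4 tested targets known from barrier ECs were higher, of which Cldn5 and Slc2a1 turned with scaling to endothelial genes, from Slc2a1, the glucose transporter (1.77, SE 0.16, adjusted p = 4.0e-05), to Sox17 (8.06, SE 0.91, adjusted p = 1.1e-04, 9.03 without library 16), which is also an arterial marker. Of 9 planar polarity genes 3 were higher, of which Vangl1 and Prickle3 turned, and 2 lower, from Prickle2 (7.56, SE 0.99, adjusted p = 2.3e-04, 10.51 without library 16) to Daam1 (-4.23, SE 0.60, adjusted p = 3.5e-04).

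**Figure D4:**
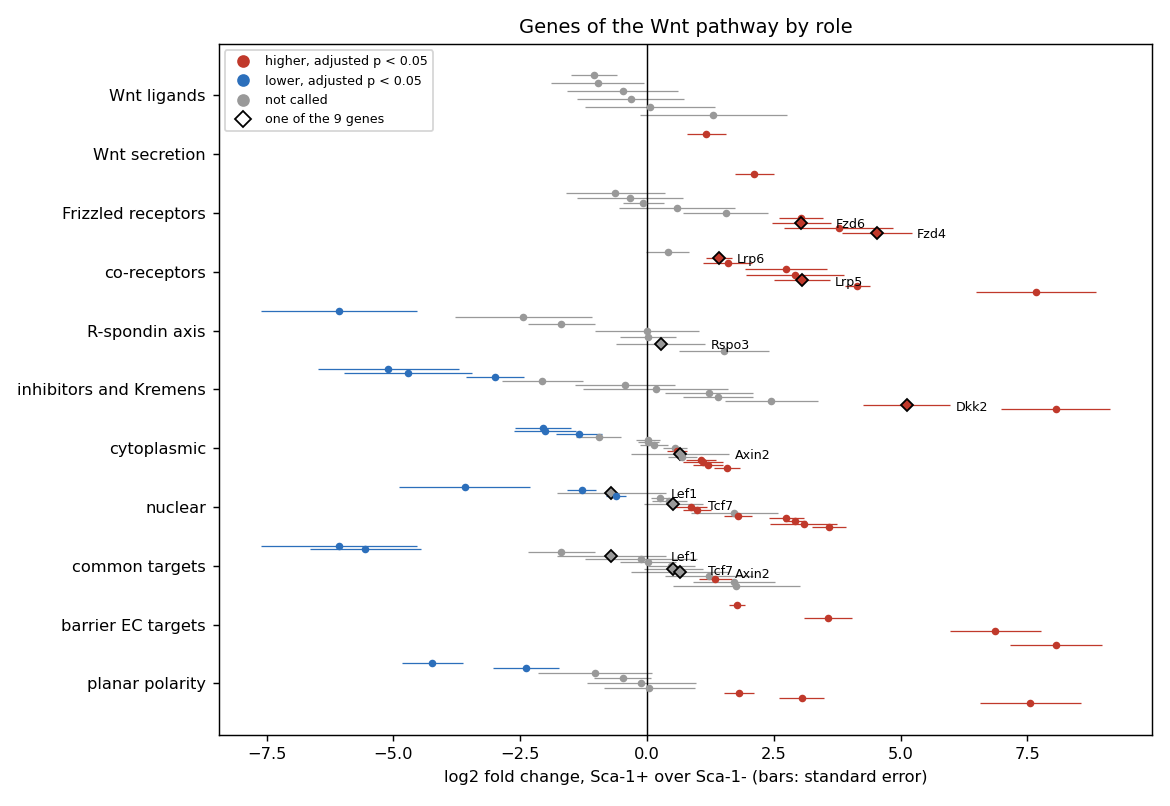
Log2 fold change of Sca-1+ over Sca-1- (horizontal axis, bars show the standard error) for every tested gene of the pathway, by role, with the 9 genes as diamonds. Fzd4, Fzd6, Lrp5, Lrp6 and Dkk2 are to the right and called, Axin2, Lef1, Tcf7 and Rspo3 are near 0 and not called, all with TMM scaling, under which the directions of Fzd6, Lrp5 and Lrp6 are the opposite of those with libraries scaled to endothelial genes.

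These directions describe the RNA of each fraction as a whole. With libraries scaled so that 25 general endothelial genes had equal mean log2 levels, 14462 of the 15937 genes were called, 14276 of them lower, and the median log2 difference of all genes was -4.65. On that scale Fzd4 (0.29, adjusted p = 0.60) and Dkk2 (0.55, adjusted p = 0.58) did not differ beyond their spread, and the other receptors turned to lower in Sca-1+, Lrp6 by -3.39 (adjusted p = 1.1e-04), Fzd6 by -1.38 (adjusted p = 0.024) and Lrp5 by -1.40, which missed the threshold at adjusted p = 0.051. The 4 genes not called before were called lower, from Axin2 at -3.76 to Lef1 at -4.89. Relative to the median of all genes on that scale, Fzd4 stood at 4.94, Fzd6 at 3.26, Lrp5 at 3.25, Lrp6 at 1.25 and Dkk2 at 5.20. With library size as the only scaling, the median moved to 0.43 and the 5 genes stood 1.38 (Lrp6) to 4.98 (Dkk2) above it.

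**Figure D5:**
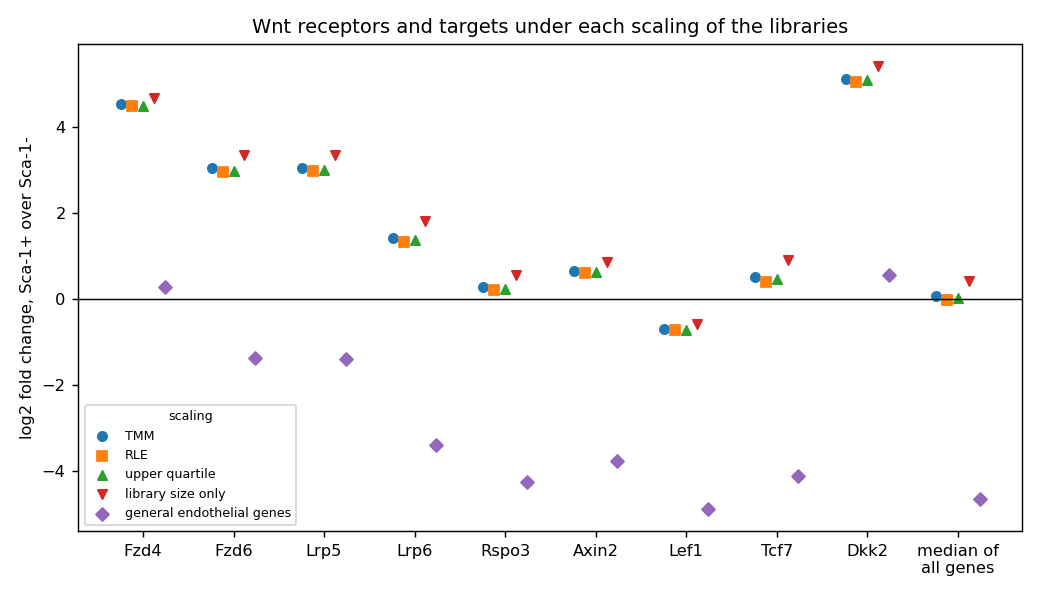
Log2 fold change of Sca-1+ over Sca-1- (vertical axis) of the 9 genes and the median of all genes under 5 scalings of the libraries. The 4 scalings over all genes lie close together, and scaling to general endothelial genes moves every gene down with the median (-4.65), so that Fzd6, Lrp5 and Lrp6 change direction while Fzd4 (0.29) and Dkk2 (0.55) stay just above 0.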

How the data were processed

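RNA was measured in 2 fractions of BM cells sorted as ECs. Per the labels, libraries were made with the SMART-Seq v4 Ultra Low Input kit from 2 ng of total RNA each, without molecular identifiers, so that counts include PCR copies and depth covers counting error only. The authors deposited whole-number read counts per gene, not normalized. The submitters' processing notes name STAR, featureCounts and mm10. Versions, annotation and strand setting are not given in the sources used here. All sample columns were used, and groups came from the labels.

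In R 4.3.3, edgeR 4.0.16 filtered genes with filterByExpr (minimum count 10, minimum total 15), scaled by TMM and ran the quasi-likelihood F-test, two-sided, adjusted by Benjamini-Hochberg, at 0.05. The standard error of a log2 difference is its size over the root of F. Ratios used a pseudocount of 0.5 counts. Lengths are merged exons of GENCODE M21. limma 3.58.1 and DESeq2 1.42.0 served as alternatives, with other scalings, no filter and each library left out. On simulated counts of 15550 genes for this comparison, 84 of 95 genes changed by 4 on the log2 scale and 44 of 97 changed by 2 were recovered. The simulation changed few genes, as many up as down, whereas 44.8% of genes were called in the data. These rates need not hold for the data.

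The 9 genes, the pathway and marker lists, and the tests were chosen with earlier results of these data known. Genes named besides the 9 were all Frizzled, R-spondin and Dkk genes, the called gene with the largest and that with the smallest log2 difference in each list, and the 3 most similar genes. Running numbers of the Sca-1+ and Sca-1- libraries form separate blocks in the labels, and a batch along them cannot be told apart from the fraction.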

Additional observations from a re-analysis of the deposited data

Results flagged for a closer look

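The values of 2 libraries were far from the rest of their group. Fzd6 in Sca-1- library 10 was at a log2 CPM of -0.24, against 2.88 to 3.72 in the other 4 Sca-1- libraries. This library had the highest sum of megakaryocyte markers (95513 CPM) and, within Sca-1-, the highest sum of general endothelial markers (2780 CPM). Its sums of arterial (10.5 CPM) and sinusoidal (55.9 CPM) endothelial markers were the lowest of all libraries. The part of these cells in its Fzd6 level was not tested. Lrp6 in Sca-1- library 14 was at a log2 CPM of 2.04, against 2.63 to 2.80. Among 44 groups looked at in this way chance flags about 1 in 20.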

How the results depend on the processing

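The calls of Fzd4, Fzd6, Lrp5, Lrp6 and Dkk2 kept their direction and side of the threshold under every alternative run except the scaling to general endothelial genes. Over the 9 fits that left out 1 library, 5 of the 9 genes stayed called, 5 higher and 0 lower, and of the other pathway genes 36 to 42 were called, 23 to 30 higher and 10 to 14 lower (43, 30 and 13 with all libraries). Scaling to general endothelial genes gave 0 higher and 6 lower among the 9 genes, and 75 called, 5 higher and 70 lower among the others. It turned Fzd6 (-1.38), Lrp5 (-1.40), Lrp6 (-3.39), Rspo3 (-4.25), Axin2 (-3.76), Tcf7 (-4.12), Ccnd1 (-3.52), Ctnnb1 (-3.36), Fzd5 (-0.44), Fzd8 (-1.57), Porcn (-2.43), Reck (-3.22), Slc2a1 (-3.02), Tcf7l1 (-0.90), Tspan12 (-0.50) and Wls (-3.42) to below 0, by its construction, since it sets the endothelial genes equal. Not all of these passed the threshold on that scale (adjusted p = 0.68 for Fzd5 and 0.051 for Lrp5 by edgeR).

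Among genes not called, Rspo3 ranged from -0.45 to 1.15, Axin2 from -0.04 to 1.35 (not tested without Sca-1- library 16) and Lef1 from -1.07 to 0.75 with 1 library left out. Lef1 was 0.64 by limma voom. Without Sca-1- libraries 14 and 22, chosen after seeing the data, Lef1 was 2.47, a direction the choice fixes, and Tcf7 -0.09. In the 7 libraries titled wt or CD452, also chosen after seeing the data, Lef1 was 0.54 and Rspo3 -0.58 with the mark as a term, and Rspo3 was -0.74 without it. The ratio Fzd4 over Fzd6 ranged from 1.36 to 2.11, Lrp6 over Lrp5 from -2.07 to -1.49 and Lef1 over Tcf7 from -0.63 to 1.11 (-0.01 with a pseudocount of 2 counts).

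Consecutive library numbers were tried as a replicate block in 6 libraries (7 with 8, 13 with 14, 15 with 16). The correlations of their deviations were 0.147, 0.148 and 0.042, the last being libraries 15 and 16, whose titles share a further number. The labels do not say what these numbers stand for, nor whether they pair the samples. The block gave 4340 calls over all genes against 5360 in the same 6 libraries without it, kept the 5 calls, gave 26 called pathway genes (19 higher, 7 lower) against 30 (21 higher, 9 lower) without it, and put Lef1 at 1.37 (0.54 without the block, where Rspo3 was -0.09). With the block, Kremen2 (adjusted p = 0.052), Fzd5 (0.059), Rnf43 (0.065), Pygo1 (0.067), Ccnd1 (0.089) and Reck (0.10) missed the threshold, and of these Fzd5 (0.073), Ccnd1 (0.079), Reck (0.11) and Pygo1 (0.15) missed it in the 6 libraries without the block too. The cause of these shifts was not tested. Axin2 held at most 37 counts in any library.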
